A study of Mus musculus with 6 samples.

Results

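The 39 Hox genes of the mouse were followed in 6 poly(A)-selected RNA-seq libraries of cells labelled HL-1. They were selected by name, as every row of the deposited table of 21959 genes whose symbol is Hox, a cluster letter and a number. HL-1 is an immortal line derived from atrial muscle cells of the mouse. All cells, labelled wild type, underwent oxygen-glucose deprivation and reoxygenation (OGD/R), which imitates ischemia and reperfusion in culture: they were kept without glucose under hypoxia for 4 h and then reoxygenated for 24 h. In 3 libraries this was the whole treatment, and in the other 3 the cells also received phillyrin, a lignan glucoside of Forsythia fruit, at 50 µg/mL for 8 h beforehand and 16 h alongside OGD/R. Neither untreated cells nor cells given the solvent alone were analysed here, and the labels do not say whether each library of a group had its own culture. If they did not, the spread that the p-values rest on is technical.

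Hox genes encode homeodomain transcription factors that lie in 4 clusters, HoxA to HoxD. Within a cluster the genes are numbered by paralog group from 1 at the 3′ end to 13 at the 5′ end, and a group holds the related copies of different clusters. In the embryo, genes of low number are switched on in anterior and genes of high number in posterior structures, and many adult cells keep part of this pattern. In heart development Hoxb1 and Hoxa3 are among the genes that mark progenitors of the second heart field. Groups 9 to 11, in contrast, are known from the thoracic to sacral trunk and the limbs.

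The libraries held between 14761317 and 22123648 counts. The Hox genes together took 29688 counts, between 0.0254% and 0.0282% of a library, and 29 of the 39 had at least 1 count. Markers of the labelled cell type were mostly absent. Of 17 atrial cardiomyocyte markers, 5 had no count, Myh6, Actn2, Mybpc3, Sln and Hand2. The atrial natriuretic peptide gene Nppa had 2 counts over all 6 libraries. The whole list summed to between 36.8 and 41.6 CPM (library-scaled read counts) in OGD/R and between 35.2 and 39.2 CPM with phillyrin, and the cardiac factor Gata4 made up most of it, at 30.8 ± 2.21 and 28.3 ± 1.01 CPM (SD, n = 3 each). The 13 skeletal myoblast markers summed to between 1275 and 1300 CPM under OGD/R alone and between 1218 and 1280 CPM with phillyrin, with the determination factor Myod1 at 83.2 ± 2.18 and 97.2 ± 4.09 CPM, Myf5 at 64.2 ± 3.65 and 52.5 ± 2.76 CPM, and Myog, a factor of differentiation, at 45 counts over all 6 libraries. Most of this skeletal sum came from genes other than Myod1, Myf5 and Myog. The 10 fibroblast markers, 3 of which were at 0 to 2 counts (Lum, Tcf21 and Thy1), summed to between 2284 and 2325 CPM under OGD/R alone and between 1808 and 1960 CPM with phillyrin. High sums did not mean that most markers were high. A mean of at least 1 FPKM (scaled by gene length and library size) was reached by 6 of the 13 skeletal markers. It was reached by 4 of the 10 fibroblast and 3 of the 17 atrial markers. The 6 endothelial markers summed to at most 1.35 CPM and the 6 macrophage markers to at most 4.27 CPM in a library. In bulk RNA, fewer cells of a type and less RNA per cell cannot be told apart. The part of these differences in the Hox results was not tested, and the cells are referred to by their label.

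The paralogs are close in sequence, which bears on how reads can be assigned to them. The homeobox, the stretch of 180 bases that encodes the DNA-binding homeodomain, is shown for the 3 members of paralog group 10, because this group held the most abundant Hox transcript and a gene with no count. The sequences were read from GENCODE M21 transcripts, and capitals mark the bases that differ from Hoxc10.
Hoxc10: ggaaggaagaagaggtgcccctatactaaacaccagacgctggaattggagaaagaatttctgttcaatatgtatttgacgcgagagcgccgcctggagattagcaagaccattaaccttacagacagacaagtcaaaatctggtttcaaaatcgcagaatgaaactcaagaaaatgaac
Hoxa10: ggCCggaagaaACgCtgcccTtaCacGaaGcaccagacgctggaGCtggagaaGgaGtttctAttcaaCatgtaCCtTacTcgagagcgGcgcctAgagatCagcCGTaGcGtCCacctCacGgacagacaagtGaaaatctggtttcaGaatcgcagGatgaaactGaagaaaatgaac
Hoxd10: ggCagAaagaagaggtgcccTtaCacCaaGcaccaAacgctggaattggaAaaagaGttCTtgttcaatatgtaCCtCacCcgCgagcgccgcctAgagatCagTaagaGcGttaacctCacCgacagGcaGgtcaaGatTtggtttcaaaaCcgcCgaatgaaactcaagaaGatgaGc
Hoxa10 differed from Hoxc10 at 35 of the 180 bases and Hoxd10 at 31. Over all 42 pairs of members that share a paralog group, the identity of the homeobox lay between 67.2% and 93.9%, with a median of 80.6%. The longest run of identical bases shared by the transcripts of a pair lay between 11 and 50 bases, with 1 transcript compared per gene, and was thus shorter than the 150-base reads.

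Levels of different genes were compared per length, on the deposited FPKM scale (fragments scaled by gene length and library size). Of the 39 genes, 14 had a mean of at least 1 FPKM over the 6 libraries, 8 had a lower mean and enough counts to be tested, 7 had between 1 and 63 counts over all 6 libraries, and 10 had no count. Of these 14 genes, 13 lay in HoxC and HoxA. HoxC, with 9 genes (chromosome 15, 102829538 to 102945278, build GRCm39), held 63.0% of the summed Hox FPKM, and 7 of its genes reached 1 FPKM. HoxA, with 11 genes (chromosome 6), held 32.2%, and 6 genes reached 1 FPKM. HoxB, with 10 genes (chromosome 11, 96085142 to 96259082), held 4.81%, and 1 gene, Hoxb6, reached 1 FPKM. HoxD, with 9 genes (chromosome 2, 74498654 to 74595486), had 1 count in all, from Hoxd11 in OGD/R replicate 3. On raw counts, not per length, HoxC held 54.8%, HoxA 40.9% and HoxB 4.29%.

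**Figure D1:**
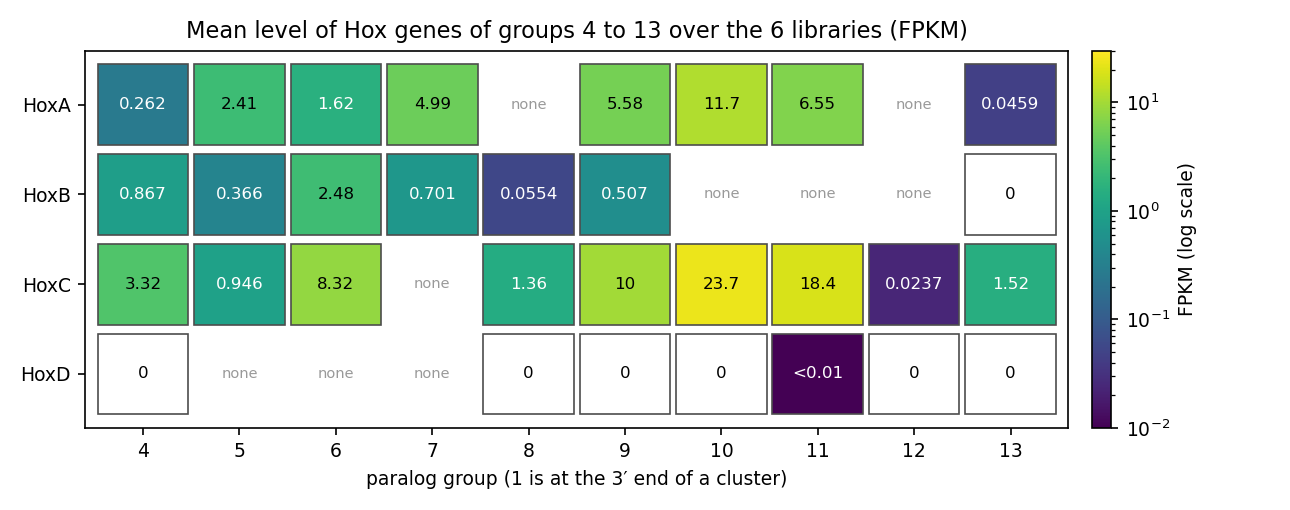
Mean FPKM over the 6 libraries of the Hox genes of paralog groups 4 to 13, by cluster (rows) and paralog group (columns), with the colour on a log scale, white boxes for genes with 0 counts and "none" where the mouse has no such gene. The highest levels are those of Hoxc10, Hoxc11 and Hoxa10, and the HoxD row is at 0 apart from 1 count of Hoxd11.

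Along HoxA and HoxC the levels were highest in paralog groups 9, 10 and 11. These 3 groups, with 10 genes, held 71.2% of the summed Hox FPKM, group 10 alone 33.0%, group 11 23.2% and group 9 15.0%. Groups 1 to 3, with 8 genes, held 1.50%. HoxB differed, with its highest level at Hoxb6 (2.48 FPKM) and Hoxb9 at 0.507 FPKM. Among the genes of the second heart field, Hoxb1 had no count and Hoxa3 stood at 0.117 FPKM. At the 5′ end the level dropped again. Hoxa13 had 12 counts over all 6 libraries, Hoxc12 had 3, and Hoxb13, Hoxd12 and Hoxd13 had none, while Hoxc13 stood at 1.52 ± 0.133 FPKM (SD, n = 6).

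Hoxc10 (ENSMUSG00000022484, chromosome 15, 102875231 to 102880328), known from the hindlimb bud and the lumbar spinal cord, was the most abundant Hox transcript, with 20.7, 22.5 and 22.9 FPKM in OGD/R and 24.4, 24.9 and 27.1 FPKM with phillyrin. It took rank 2151 of the 21959 genes by mean FPKM. Hoxc11 (ENSMUSG00000001656, chromosome 15, 102862862 to 102866143), also a posterior and hindlimb gene, followed at 16.7, 17.7 and 18.1 FPKM in OGD/R and 22.0, 19.2 and 16.4 FPKM with phillyrin. Hoxa10 (ENSMUSG00000000938, chromosome 6, 52208177 to 52217834), a gene of the lumbar region and the uterus, had 10.2, 11.8 and 11.4 FPKM in OGD/R and 12.5, 12.3 and 11.8 FPKM with phillyrin. These 3 genes made up 50.1% of the summed Hox FPKM, and each exceeded the next in the order, with Hoxc9 after Hoxa10, in all 6 libraries.

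Hoxc9 (ENSMUSG00000036139), a thoracic gene that restrains limb-innervating motor neuron fates in the spinal cord, had 9.28, 9.85 and 10.0 FPKM in OGD/R and 10.7, 11.9 and 8.36 FPKM with phillyrin. Hoxc6 (ENSMUSG00000001661), a gene of the forelimb level and the thorax, had 7.45, 7.01 and 6.58 FPKM in OGD/R and 10.6, 8.93 and 9.31 FPKM with phillyrin. Hoxa11 (ENSMUSG00000038210), which patterns the forearm and lower leg, had 6.66, 5.73 and 7.06 FPKM in OGD/R and 6.18, 7.55 and 6.10 FPKM with phillyrin. The order of these neighbours was not the same in every library. Hoxc9 exceeded Hoxc6 in 5 of 6 libraries and Hoxc6 exceeded Hoxa11 in 5 of 6. Hoxa9 (ENSMUSG00000038227), also a regulator of blood progenitors, had 6.18, 5.25 and 5.47 FPKM in OGD/R and 5.79, 5.78 and 5.04 FPKM with phillyrin. Hoxa7 (ENSMUSG00000038236), of the thoracic trunk, had 4.93, 5.14 and 5.28 FPKM in OGD/R and 4.37, 5.00 and 5.23 FPKM with phillyrin. The level of Hoxa9 was above that of Hoxa7 in 5 of 6 libraries.

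The other members with a mean of at least 1 FPKM were lower, among them genes of low and of high paralog number. Hoxc4 (ENSMUSG00000075394), a cervical gene, had 4.67, 3.43 and 3.32 FPKM in OGD/R and 3.11, 2.75 and 2.66 FPKM with phillyrin. Hoxb6 (ENSMUSG00000000690) had 2.66, 2.57 and 2.80 FPKM in OGD/R and 2.33, 2.07 and 2.45 FPKM with phillyrin. Hoxa5 (ENSMUSG00000038253), needed for the lung and the cervicothoracic skeleton, had 2.81, 2.32 and 2.36 FPKM in OGD/R and 2.04, 2.67 and 2.27 FPKM with phillyrin. The levels of Hoxb6 and Hoxa5 lay within the spread between libraries, with Hoxb6 above in 4 of 6. Hoxa6 (ENSMUSG00000043219) had 0.944, 2.02 and 1.71 FPKM in OGD/R and 2.12, 1.14 and 1.78 FPKM with phillyrin. Hoxc13 (ENSMUSG00000001655), known for its role in hair and nails, had 1.63, 1.29 and 1.60 FPKM in OGD/R and 1.60, 1.58 and 1.43 FPKM with phillyrin. Hoxc8 (ENSMUSG00000001657), a brachial and thoracic gene, had 1.01, 1.18 and 1.45 FPKM in OGD/R and 1.64, 1.45 and 1.46 FPKM with phillyrin. For these last 3 genes the order was not stable, with each above the next in 4 of 6 libraries.

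A mean of at least 1 FPKM in the OGD/R group and not over all libraries was found for Hoxb4 and Hoxc5, among others. Hoxb4 (ENSMUSG00000038692), a regulator of blood stem cells, had 0.943, 1.07 and 1.10 FPKM in OGD/R and 0.655, 0.564 and 0.871 FPKM with phillyrin. Hoxc5 (ENSMUSG00000022485) had 0.908, 0.982 and 1.47 FPKM in OGD/R and 0.900, 0.893 and 0.526 FPKM with phillyrin. Both lay next to the minimum of 1 FPKM, with Hoxc8 the nearest gene above it. The tested genes Hoxa3, Hoxb3, Hoxb5, Hoxb7 and Hoxb9, had means between 0.117 and 0.701 FPKM.

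**Figure D2:**
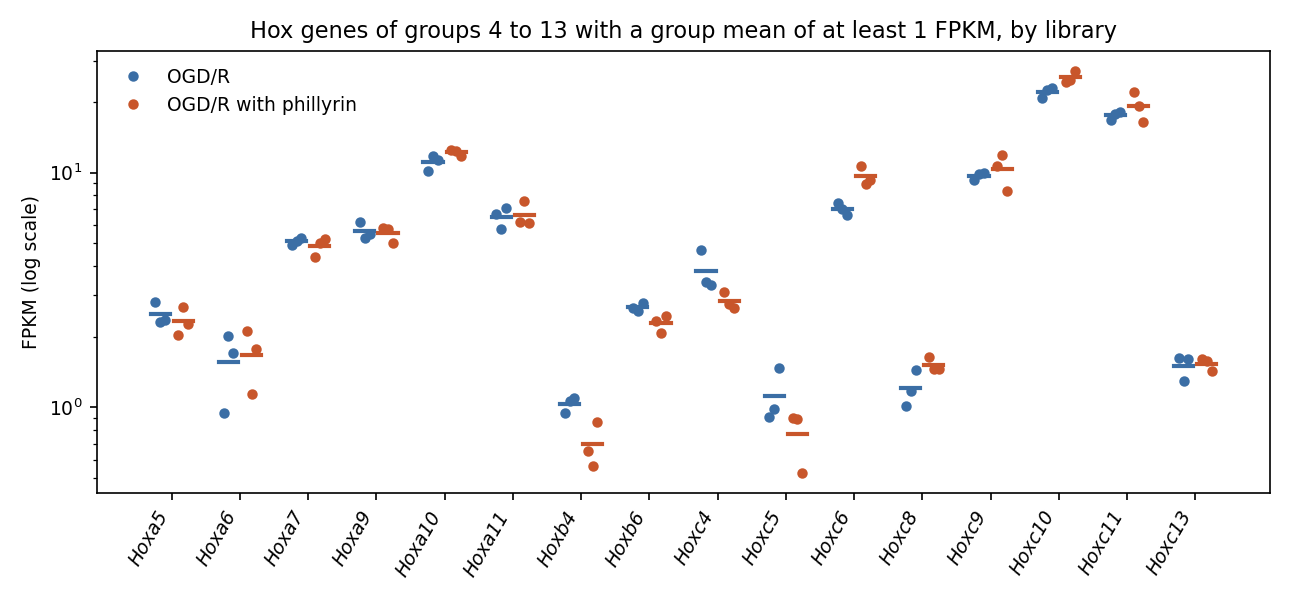
FPKM (log axis) in each library for the 16 Hox genes of paralog groups 4 to 13 with a mean of at least 1 FPKM in either group, with points for libraries and bars for group means (n = 3 each). Hoxc10 and Hoxc11 are the highest in both groups, and all 3 phillyrin points of Hoxc6 lie above its OGD/R points.

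HoxD was at the limit of detection. Its genes Hoxd1, Hoxd3, Hoxd4, Hoxd8, Hoxd9, Hoxd10, Hoxd12 and Hoxd13 had 0 counts in all 6 libraries. Over the 111513800 counts of all libraries, 0 counts allow up to 3 counts, or 0.0269 CPM, counting error only, since PCR-amplified reads are not independent molecules. Per length, Hoxd10 was at least 1596-fold lower than Hoxc10 and at least 788-fold lower than Hoxa10. Hoxd9 was at least 804-fold lower than Hoxc9. The gene models of Hoxd3 and Hoxd4 share 62.3% and 52.3% of their exonic bases with other genes on the same strand, each other and Gm28230 included, and how reads there were assigned is unknown, so no bound is given for them. Gm28230 itself had 0 counts. Hoxd10 shares 5.73% in the same way and Hoxd9 none. These bounds set the counts of all 6 libraries against the limit of 3 counts.

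Genes on either side of HoxD were transcribed. Lnpk, an endoplasmic reticulum junction protein gene 88875 bases from the cluster, had a mean of 7.27 FPKM, and Mtx2, a mitochondrial import gene 60661 bases away on the other side, had 11.3 FPKM. Evx2, the homeobox gene at the 5′ end of HoxD, had 0 counts, as did Evx1 beyond the 5′ end of HoxA. Near HoxC, Calcoco1 had 12.7 FPKM, Smug1 9.48 FPKM and Cbx5 72.8 FPKM. Near HoxB, Ttll6 (6 counts), Calcoco2 (9), Skap1 (21) and Gip (1) were near 0, and Igf2bp1 had 0.338 FPKM. Atp5g1, 118646 bases away, had 12.9 FPKM, Ube2z, 128928 bases away, 49.8 FPKM, and Snf8, 146886 bases away, 19.6 FPKM.

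**Figure D3:**
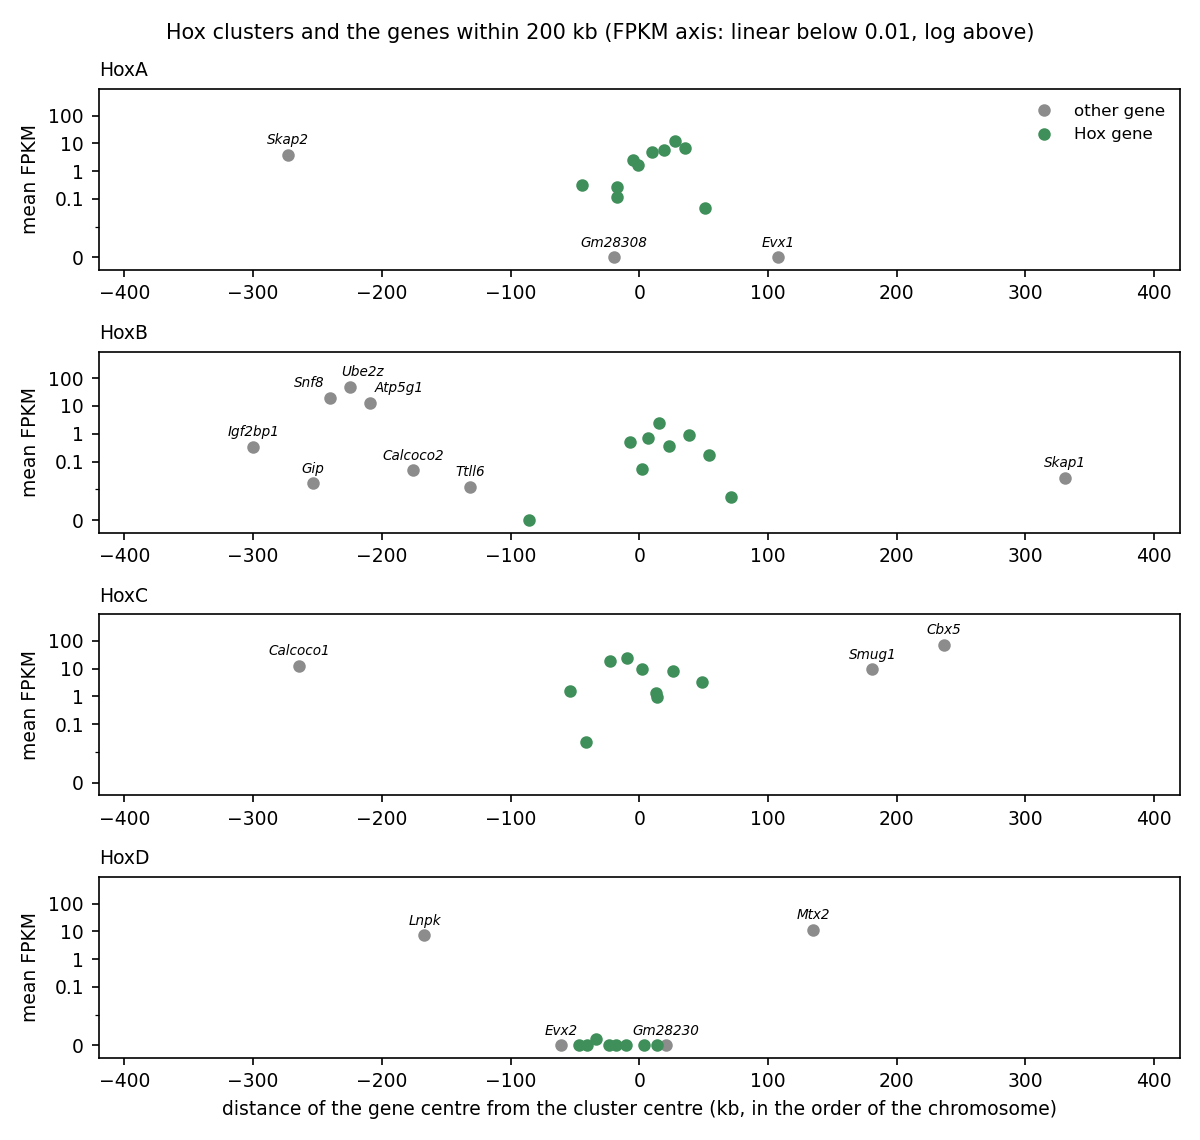
Mean FPKM over the 6 libraries (axis linear below 0.01 and log above) of the Hox genes of paralog groups 2 to 13 and of every other listed gene within 200 kb, against its distance from the cluster centre in kb. In HoxD the Hox genes and Evx2 lie at or next to 0 between Lnpk (7.27 FPKM) and Mtx2 (11.3 FPKM).

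Promoter sequences were at hand for 22 of the 39 genes (24 start sites, RefSeq, build GRCm38.p6), and the 250 bases before the start were read. 4 windows are shown, both starts of the expressed Hoxa10, its expressed neighbour Hoxa9 and the paralog with no count, Hoxd10, so that base composition can be set beside expression. Capitals mark CpG dinucleotides, the sites of DNA methylation.
Hoxa10 promoter (chr6:52234940-52235189, minus strand): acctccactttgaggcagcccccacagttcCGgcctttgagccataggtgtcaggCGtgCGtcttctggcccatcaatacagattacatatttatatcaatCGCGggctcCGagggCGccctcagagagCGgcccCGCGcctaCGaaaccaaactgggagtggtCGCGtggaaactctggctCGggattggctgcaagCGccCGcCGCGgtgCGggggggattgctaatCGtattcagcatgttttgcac
Hoxa10 promoter (chr6:52240855-52241104, minus strand): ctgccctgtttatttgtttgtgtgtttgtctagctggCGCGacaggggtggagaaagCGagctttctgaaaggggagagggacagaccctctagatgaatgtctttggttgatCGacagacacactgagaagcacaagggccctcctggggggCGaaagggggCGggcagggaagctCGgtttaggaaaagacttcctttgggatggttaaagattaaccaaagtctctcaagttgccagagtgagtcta
Hoxa9 promoter (chr6:52227371-52227620, minus strand): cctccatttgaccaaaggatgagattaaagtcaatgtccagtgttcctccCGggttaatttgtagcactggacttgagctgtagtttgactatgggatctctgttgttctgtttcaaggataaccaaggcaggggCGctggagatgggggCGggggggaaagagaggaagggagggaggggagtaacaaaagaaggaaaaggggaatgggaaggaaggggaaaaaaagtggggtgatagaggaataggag
Hoxd10 promoter (chr2:74691641-74691890, plus strand): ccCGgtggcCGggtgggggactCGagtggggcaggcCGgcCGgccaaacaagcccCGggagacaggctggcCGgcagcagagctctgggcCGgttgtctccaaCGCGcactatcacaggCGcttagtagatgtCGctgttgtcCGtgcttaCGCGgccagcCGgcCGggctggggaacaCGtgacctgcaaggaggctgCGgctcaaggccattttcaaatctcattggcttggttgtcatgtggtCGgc
The Hoxd10 window held 20 CpG dinucleotides, and those of Hoxa10 held 20 and 7. The Hoxa9 window held 3. The 10 windows of HoxD had a median of 12.5 CpG (range 2 to 31), the 10 of HoxA a median of 15.5 (range 3 to 35), and all 32851 windows of the table a median of 6. Not all HoxA windows belong to transcribed genes, and the one with 35 was that of Hoxa13, which had 12 counts. The 8 windows of Hox genes with at least 1 FPKM had a median of 10.5 CpG (range 3 to 28). CpG number thus overlapped between these windows and those of the silent HoxD. All 8 are HoxA windows except that of Hoxc4, and no window was at hand for Hoxc6, Hoxc9, Hoxc10 or Hoxc11. The letters TGATNNAT, recognised by Hox and Pbx proteins together, were found on either strand in 4 of the 24 Hox windows (16.7%) and in 7.68% of all windows. TGACAG, recognised by Meis proteins, was found in 2 (8.33%) and in 15.9% of all windows. Neither was found in the 8 windows of the 7 genes with at least 1 FPKM, too few windows to be read at these shares. The window of Hoxc4 among them is exonic over all 250 bases, and those of Hoxa11, Hoxa7 and Hoxa6 over 98, 78 and 50. Some HoxD windows are exonic in part as well, such as those of Hoxd1 (118 bases) and Hoxd9 (110 bases).

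With phillyrin, 3 Hox genes were higher, Hoxc6, Hoxc10 and Hoxa10, and 1 was lower, Hoxc4. Of the 22 tested Hox genes 4 were called (18.2%, edgeR adjusted p under 0.05, adjusted over all 11658 genes tested), where 31.7% of all tested genes were. By direction, 3 of 22 were higher, against 16.0% of all tested genes, and 1 of 22 lower, against 15.6%. In 8 of 22 the CPM values of the groups did not overlap, against 43.1% of all tested genes. The median log2 fold change of the 22 was 0.098, beside -0.012 over all tested genes. The median SE was 0.18, beside 0.072 over all, so that many of these low genes were measured less precisely. The 17 other Hox genes fell below the count filter. Without the filter the 29 Hox genes with any count were tested and 5 were called, the same 4 and Hoxc11.

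Hoxc6 rose most among the called genes. Its CPM values, on library sizes scaled by TMM factors, were 17.6, 16.6 and 15.6 under OGD/R alone and 25.9, 21.7 and 23.0 with phillyrin, and the groups did not overlap. The mean went from 16.6 ± 0.998 to 23.5 ± 2.10 CPM (SD, n = 3 each), 1.41-fold or 0.50 ± 0.090 (SE) in log2, with an edgeR adjusted p of 3.58e-05. Hoxc10 had 38.9, 42.3 and 43.2 CPM under OGD/R alone and 47.0, 48.0 and 53.2 CPM with phillyrin. All 3 phillyrin libraries were above all OGD/R libraries, by 0.25 ± 0.065 (SE) in log2 and with an edgeR adjusted p of 0.00303. Hoxc6 and Hoxc10 remained past the threshold under each of the 13 alternative settings.

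Hoxa10 and Hoxc4 lay nearer the threshold. Hoxa10 had 32.8, 38.0 and 36.7 CPM under OGD/R alone and 41.3, 40.8 and 39.5 CPM with phillyrin, a difference of 0.18 ± 0.068 (SE) in log2 with an edgeR adjusted p of 0.0422. The groups did not overlap, but the OGD/R values were more spread than those with phillyrin. It no longer passed once OGD/R replicate 1 or 3 was left out (edgeR adjusted p = 0.263 and 0.0705) or phillyrin replicate 1 or 2 (0.0793 and 0.0850), nor with library size scaling (0.134) or DESeq2 (adjusted p = 0.0627). Hoxc4 had 11.8, 8.68 and 8.42 CPM under OGD/R alone and 8.07, 7.13 and 7.03 CPM with phillyrin, a difference of -0.37 ± 0.14 (SE) in log2 with an edgeR adjusted p of 0.0340. OGD/R replicate 1 stood above the other 2. Without it the difference was -0.21 in log2 (edgeR adjusted p = 0.334), and Hoxc4 also failed to pass when phillyrin replicate 2 or 3 was omitted (0.113 and 0.0823) and with DESeq2 (adjusted p = 0.0764).

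Among the members that missed the threshold, Hoxc11 had 33.1, 35.3 and 36.1 CPM under OGD/R alone and 45.0, 39.3 and 34.1 CPM with phillyrin (0.18 ± 0.076 SE in log2, edgeR adjusted p = 0.0636). Phillyrin replicate 3 lay within the OGD/R range, and without it Hoxc11 passed (0.00363), as did Hoxc9 (log2 fold change 0.26, edgeR adjusted p = 0.0159, from 0.14 and 0.235 with all libraries) and Hoxb4 (adjusted p = 0.0495, from 0.0899). Hoxc11 also passed without a low-count filter (0.0334). Hoxb7 had the largest log2 fold change of the 22, 0.88 (SE 0.36, edgeR adjusted p = 0.0615), at 1.14, 0.386 and 0.789 CPM under OGD/R alone and 1.40, 1.42 and 1.39 CPM with phillyrin. It passed with limma-voom (adjusted p = 0.0335) and without OGD/R replicate 1 (edgeR adjusted p = 0.0282), from 119 counts over the 6 libraries. Hoxb4 was at -0.56 (SE 0.25), Hoxc5 at -0.46 (SE 0.24) and Hoxc8 at 0.36 (SE 0.19). Hoxa5, Hoxa7, Hoxa9 and Hoxa11, all above 2 FPKM, had log2 fold changes between -0.044 and 0.084.

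**Figure D4:**
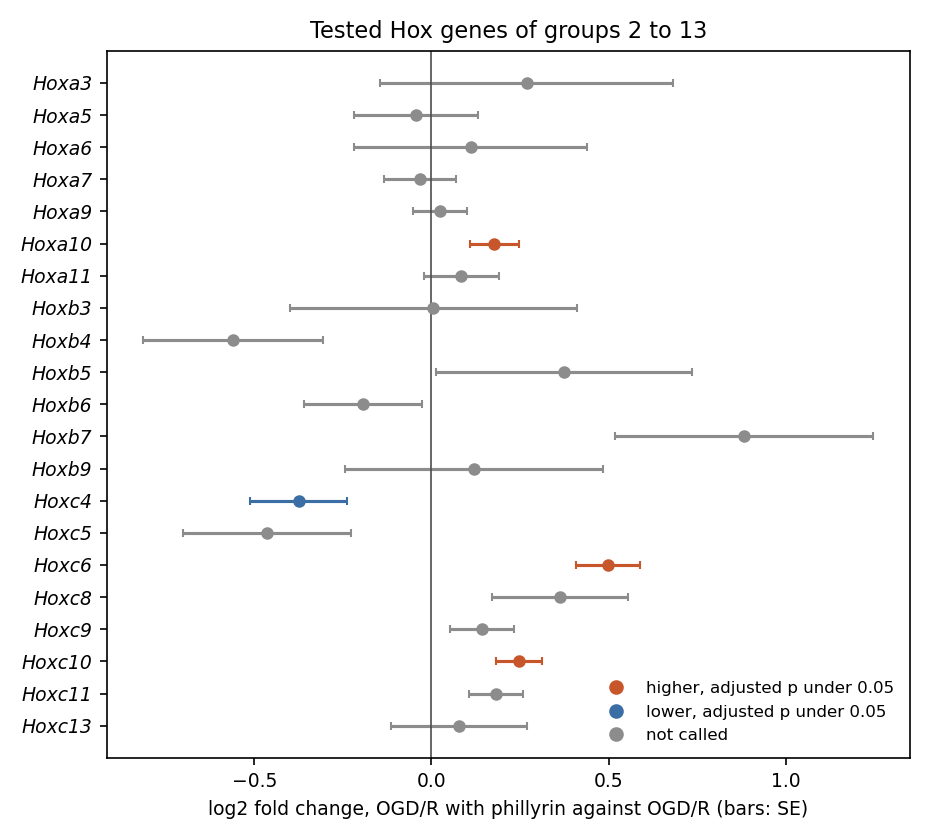
Log2 fold change, phillyrin over OGD/R alone, for the 21 tested Hox genes of paralog groups 2 to 13, in order of cluster and number, with bars for the SE and colour for the edgeR call. Hoxc6, Hoxc10 and Hoxa10 lie to the right of 0 and Hoxc4 to the left among called genes, and the genes of low counts have the widest bars.

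By cluster, 3 of 8 tested HoxC genes were called, 2 higher and 1 lower, 1 of 8 HoxA genes, and 0 of 6 HoxB genes. Over all tested genes 31.7% were called. The median SE in log2 was 0.11 in HoxC, 0.14 in HoxA and 0.36 in HoxB, so that HoxB was measured least precisely. In HoxB 2 genes had an unadjusted edgeR p under 0.05, with limma-voom 1, Hoxb7, passed, and with DESeq2 0 did. The summed FPKM of HoxC was 62.4, 64.1 and 65.4 in OGD/R and 75.0, 71.6 and 67.3 with phillyrin, and that of HoxA 34.1, 33.9 and 35.2 in OGD/R and 34.7, 35.9 and 33.6 with phillyrin. On this scale, which has no TMM factors, the sums of HoxC did not overlap between the groups and those of HoxA did. With TMM factors the summed CPM of HoxA was 106.8, 104.2 and 107.9 in OGD/R and 110.7, 114.8 and 107.6 with phillyrin. These overlapped only through phillyrin replicate 3, and the summed CPM of HoxC again did not overlap. No test was made of these sums, and a difference between the clusters was not tested.

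The gene models limit some values. In GENCODE M21, 9 of the 39 genes shared exonic bases with a gene on the same strand, most of all Hoxd3 and Hoxd4, and 10 with a gene on the other strand, where reads of the pair cannot be told apart without strand. Hoxa11 shared 35.0% of its exonic bases with Hoxa11os, Hoxa7 20.4% with Hoxaas3, and Hoxb3 52.9% with Hoxb3os. Of the 4 called genes, Hoxc10 shared 166 bases (8.70%) with Hoxc5 on the same strand, and Hoxc6, Hoxa10 and Hoxc4 shared none. None of the 20 listed noncoding RNA genes of the clusters, among them Hotair and Hottip, was analysed here.

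Hox proteins bind DNA with the TALE cofactors Pbx, Meis and Pknox. All 10 cofactor genes were tested, 1 was higher with phillyrin and the other 9 were not called, with 8 of the 10 at or above 1 FPKM. Over all tested genes 16.0% were higher and 15.6% lower. The median was -0.063 in log2. Pbx3 rose with phillyrin, standing at 23.2 ± 2.42 and 28.7 ± 1.86 CPM (SD, n = 3 each), with an edgeR adjusted p of 0.00409 that became 0.0520 once OGD/R replicate 2 was omitted. Meis1 stood at 21.3 ± 0.783 and 23.2 ± 1.43 CPM (SD, n = 3 each) and did not pass.

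Polycomb complexes keep Hox genes silent by histone modification. Of 32 Polycomb genes 8 were higher and 4 lower, with a median of -0.031 in log2, whereas plain library size scaling put 5 up and 10 down. The called share, 12 of 32, was near the 31.7% of all tested genes. Bmi1, a subunit of the complex that ubiquitinates histone H2A, rose from 199 ± 3.56 to 228 ± 3.06 CPM, and Pcgf3, a related subunit, from 140 ± 0.494 to 158 ± 4.60 CPM (SD, n = 3 each). Phf1, an accessory subunit of the methylating complex, fell from 8.81 ± 0.718 to 5.84 ± 0.440 CPM. Ezh2, the methyltransferase, was 0.12 ± 0.043 (SE) higher in log2 (edgeR adjusted p = 0.0305). It did not pass with library size scaling (0.169), nor with OGD/R replicate 1 or 2 left out (0.153 and 0.104) or phillyrin replicate 2 (0.0865).

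Trithorax proteins and some histone demethylases oppose Polycomb. Of 15 genes on the list for these, which also holds the methyltransferase gene Dot1l, 3 were lower and the other 12 were not called. The median was -0.064 in log2. Lower calls made up 15.6% of all tested genes, which is near 3 of 15. Plain library size scaling put 5 down. With 1 library left out, between 1 and 4 were lower and 0 or 1 higher. The methyltransferase gene Dot1l fell from 102 ± 4.73 to 88.1 ± 3.50 CPM, the demethylase gene Kdm6a from 59.2 ± 1.65 to 52.0 ± 2.70 CPM and Kmt2a from 117 ± 1.09 to 107 ± 2.96 CPM (SD, n = 3 each). Kdm6a and Kmt2a did not pass when OGD/R replicate 2 was omitted (edgeR adjusted p = 0.0617 and 0.0674), when OGD/R replicate 3 was (0.0536 and 0.0820) or when phillyrin replicate 2 was (0.0842 and 0.101).

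Regulators that set Hox expression in the embryo were partly absent. The caudal genes Cdx2 and Cdx4 had 0 counts and Cdx1 had 7. Of 8 tested genes of this list 2 were higher and 2 lower, beside 16.0% and 15.6% of all tested genes. The retinoic acid receptor genes Rarg and Rara fell. Rarg stood at 165 ± 7.36 CPM under OGD/R alone and 134 ± 4.36 CPM with phillyrin, and Rara at 34.8 ± 0.861 and 28.6 ± 1.27 CPM (SD, n = 3 each). Egr2, which acts in hindbrain segments, rose from 16.3 ± 0.560 to 22.2 ± 0.637 CPM, and Gdf11, a ligand of the trunk-to-tail transition, from 60.5 ± 3.45 to 69.3 ± 0.752 CPM, which did not pass once OGD/R replicate 1 was omitted (edgeR adjusted p = 0.0584). Of 9 tested genes on a list of non-Hox homeobox genes and genes near the clusters, 3 rose and the other 6 were not called. Among all tested genes 16.0% were higher. These 3 were Calcoco1 (0.56 in log2), Lnpk (0.42) and Smug1 (0.24), at 198925, 88875 and 116439 bases from a cluster.

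Other genes of limb and axial position were set beside the Hox pattern. Tbx4, the hindlimb T-box gene, stood at 3.80 ± 0.603 and 4.28 ± 0.859 CPM (SD, n = 3 each), while Tbx5, the forelimb and heart gene, had 3 counts over all 6 libraries. Pitx1, which acts upstream of Tbx4 in the hindlimb, had 0 counts. Of 16 tested genes of this list 3 were higher and the other 13 were not called, a share near the 16.0% of all tested genes. Tbx18, a gene of proximal limb mesenchyme and the somites, stood at 33.9 ± 0.343 CPM under OGD/R alone and rose to 43.0 ± 3.19 CPM. Irx3 rose from 6.29 ± 0.848 to 8.64 ± 0.885 CPM (SD, n = 3 each), and did not pass once OGD/R replicate 3 was omitted (edgeR adjusted p = 0.0879). Its neighbour Irx5 was 0.40 ± 0.16 (SE) higher in log2 (edgeR adjusted p = 0.0455). It did not pass when OGD/R replicate 1 or 3 (0.106 and 0.258) or phillyrin replicate 1 or 2 (0.105 each) was omitted, with library size scaling (0.0810) or with DESeq2 (adjusted p = 0.0815).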

How the data were processed

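RNA with poly(A) tails from 6 samples was read as paired ends of 150 bases, per the labels. Trimmomatic 0.39, HISAT2 2.2.1, featureCounts 2.0.3, DESeq2 1.34.0 and build GRCm39 are listed in the submitters' processing notes. What each did, the annotation, the strand setting and the treatment of multi-mapping reads were not given in the sources used here. For every gene the deposited table has a raw read count and FPKM in each sample, per the file headers. The authors' FPKM equalled the count over gene length and library total (largest relative difference 2.43e-07). Columns were assigned by sample title, since the description of all 3 phillyrin samples names the column of the first; which phillyrin column is which sample rests on the titles, and the groups are the same either way. The 51 rows without a symbol carry a gene ID, took at most 0.00743% of a library and were kept.

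Counts were filtered with filterByExpr by group, scaled by TMM and compared with the robust quasi-likelihood F-test of edgeR 4.0.16 under R 4.3.3 (11658 genes, two-sided, Benjamini-Hochberg, threshold 0.05). An SE is the log2 fold change over the square root of F. The procedure was checked on simulated counts. As alternatives served RLE factors, plain library sizes, DESeq2 1.42.0, limma-voom 3.58.1, no filter, a minimum of 1 CPM, fits lacking 1 library at a time and a replicate block. Genes were named by rule: every Hox gene with a group mean of at least 1 FPKM, with 0 counts or with a call, and of each other list up to 4 called genes with the smallest p, plus preset genes. Other genes that are named, such as those next to the clusters and the low Hox genes, and the 200 kb window were picked with their values in view. The members and lists were chosen with earlier results of these data known. Transcript and exon models were GENCODE M21 (GRCm38), whose exonic length equalled that of the table for 38 of 39 Hox genes, a few results are not reported here, and no coordinate was converted between builds.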

Additional observations from a re-analysis of the deposited data

How the results depend on the processing

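Each of the 22 tested Hox genes was recomputed under up to 13 alternatives, 284 values in all. Of these, 248 kept direction and side of the threshold, 10 lost a call (Hoxa10 in 6 and Hoxc4 in 4), 6 gained one, and 20 changed sign, all of them in genes not called under any of the settings. The count of higher Hox genes was 3 and lay between 2 and 5 with 1 library left out, and that of lower genes was 1 and lay between 0 and 1. With DESeq2 0 Hox genes were lower. Scaled by library size only, 1313 of all tested genes were higher and 2455 lower, in place of 1871 and 1823.

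The sign changes, in log2, were found in genes near 0. Plain library sizes put Hoxa9 at -0.018 and Hoxb3 at -0.037, and Hoxb3 was also at -0.021 with DESeq2, -0.041 with limma-voom, -0.00028 without a filter and -0.012 with the replicate block. The other sign changes came from leaving out 1 library, where Hoxa5 ranged from -0.16 to 0.057, Hoxa6 from -0.14 to 0.37, Hoxa7 from -0.081 to 0.050, Hoxa9 from -0.024 to 0.093, Hoxa11 from -0.024 to 0.15, Hoxb3 from -0.47 to 0.25, Hoxb9 from -0.57 to 0.42 and Hoxc13 from -0.025 to 0.14. The cause of the changes was not tested.

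For the other lists, library size scaling gave 3 lower cofactors (0 with TMM) and 5 higher and 10 lower Polycomb genes (8 and 4). It also gave 5 lower Trithorax genes (3) and 1 lower gene on the list of other homeobox genes and neighbours (0). With 1 library left out the ranges were 0 to 1 higher and 0 to 1 lower cofactors and 5 to 8 and 2 to 5 Polycomb genes. They were 0 to 1 and 1 to 4 for Trithorax genes and 1 to 2 and 2 to 3 for upstream regulators. For other homeobox genes and neighbours they were 3 to 4 and 0 to 1, and 1 to 3 limb and axial genes were higher with 0 lower. The replicate block changed no Hox call and gave 1 lower cofactor. The deviations of same-numbered libraries from their group means correlated at 0.0028, 0.0056 and 0.0032 across genes. Those of differently numbered libraries correlated between -0.0046 and 0.0013. Values this near 0 cannot decide whether the replicate numbers pair the samples.

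The number of Hox genes with at least 1 FPKM was 14, and lay between 14 and 16 with 1 library left out. Cluster shares of the summed level moved on raw counts to 40.9% for HoxA, 4.29% for HoxB and 54.8% for HoxC, since gene length is then not taken into account. With 1 library left out they lay between 32.0% and 32.6%, 4.67% and 4.92%, and 62.5% and 63.4%. Depth limits the 17 genes below the count filter: at 3 counts the limit is 0.136 CPM in the deepest library and 0.203 CPM in the shallowest.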
